A study of Mus musculus with 6 samples.

Results

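The 57 genes described here are the mouse ADAM proteases, the ADAMTS proteases and the ADAMTS-like proteins, chosen by gene symbol alone (Adam, Adamts or Adamtsl followed by a number and at most 1 letter) from the 23361 genes of the deposited table. They comprise 33 ADAM, 19 ADAMTS and 5 ADAMTS-like genes. The study sequenced RNA of primary satellite cells, which are the resident stem cells of muscle, from the hindlimbs of mice aged 4 months: 3 wild type (WT) samples and 3 AUF1-null (KO) samples. Cells of both genotypes were released with collagenase and sorted by flow cytometry as positive for Sdc4, and mice of both share a C57BL/6 breeding described as 129 in background. AUF1, encoded by Hnrnpd, binds AU-rich stretches in the 3' UTRs of messenger RNAs, and the comparison asks which transcripts differ without it. The labels do not say how the allele was made, which cells lack AUF1 or whether animals were pooled.

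The deposited table holds 1 value per gene and condition on the FPKM scale (fragments counted per transcript length and sequencing depth), pooled over replicates by the authors' software. Values of single samples, SDs and the depth behind a value are therefore not known here. Its conditions are called q1 and q2 without a genotype, and the labels do not pair them with one. The table was deposited under a name that puts WT ahead of KO, but it does not state that q1 and q2 follow that order, so each difference is that of q2 relative to q1. Hnrnpd itself was listed at 7.5 FPKM in q1 and 5.59 in q2 (Cuffdiff q = 0.999 in the authors' deposited table) and does not settle it. A gene counts as called when its status is OK, which means that the authors' software tested it, and its Cuffdiff q is below 0.05. As to the sorted cells, the satellite cell marker Pax7 was listed at 1.16 and 0.85 FPKM in the authors' deposited table, while 8 endothelial markers summed to 17042 FPKM in q1 and 14338 in q2, against 326 and 402 for 8 satellite cell markers. Fabp4, at 14386 and 12032 FPKM, and the sorting marker Sdc4, at 173 and 270 FPKM in the authors' deposited table, carry much of these sums. Without Fabp4 the endothelial markers summed to 2656 and 2307 FPKM, and without Sdc4 the satellite cell markers to 153 and 132 FPKM. Of this last sum, Vcam1 alone carried 90.8 FPKM in q1 and 65.1 in q2. Markers of more than 1 cell type were thus present, and in such bulk RNA fewer cells of a type and less RNA per cell cannot be told apart.

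ADAM proteins are mostly anchored in the cell membrane and carry a metalloprotease and a disintegrin domain; the active ones cut other membrane proteins close to the cell surface and so release growth factors, cytokines and receptor ectodomains, and ADAM10 makes the first cut of ligand-bound Notch, a receptor that holds satellite cells in quiescence. ADAMTS proteins are secreted, bind the matrix through thrombospondin type 1 repeats and trim proteoglycans, procollagens and other matrix proteins. ADAMTS-like proteins have the repeats without the protease and are found on matrix microfibrils.

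Because AUF1 binds AU-rich elements, each gene's longest 3' UTR in the annotation was searched on the transcript's strand for TATTTAT, in which T stands for the U of the RNA, with overlapping copies counted. The motif was rare in ADAM genes and common in ADAMTS genes. It stood in 2 of 33 ADAM genes, Adam21 and Adam22, with 1 copy each, but in 11 of 19 ADAMTS genes and 3 of 5 ADAMTS-like genes. Many ADAM genes have short 3' UTRs, with a median of 332 bases against 1843 in ADAMTS genes. Among the genes that reached 1 FPKM on either side, however, the medians were 2135 bases in 11 ADAM genes and 1883 in 11 ADAMTS genes, and the motif stood in 1 and in 7 of them. For comparison, 29.7% of the 13061 tested genes with an annotated 3' UTR carried it, with a median length of 1138 bases. Adamts1 and Adamts4, the 2 most abundant members, have 3 copies each, and Adamtsl1 has 5, the most of any member. Their sites follow with the motif in capitals, from the GENCODE vM21 transcripts on GRCm38, for Adamtsl1 the first copy only, which runs on into a second, overlapping one.
Adamts1 site 1 (chr16:85794768-85794792, minus strand): caattcatcTATTTATaaaatgtac
Adamts1 site 2 (chr16:85794292-85794316, minus strand): ataataacaTATTTATttttataca
Adamts1 site 3 (chr16:85794212-85794236, minus strand): aaaatagagTATTTATacaatatat
Adamts4 site 1 (chr1:171259473-171259497, plus strand): ccctagttgTATTTATttggtattt
Adamts4 site 2 (chr1:171259484-171259508, plus strand): tttatttggTATTTATtcattttta
Adamts4 site 3 (chr1:171259761-171259785, plus strand): gaagtttgcTATTTATatgctcttt
Adamtsl1 site 1 (chr4:86426025-86426049, plus strand): tcttcctttTATTTATttatttgcc
These are matches of letters in an annotated 3' UTR. Whether the cells use the longest 3' UTR, or AUF1 binds there, was not tested.

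**Figure D1:**
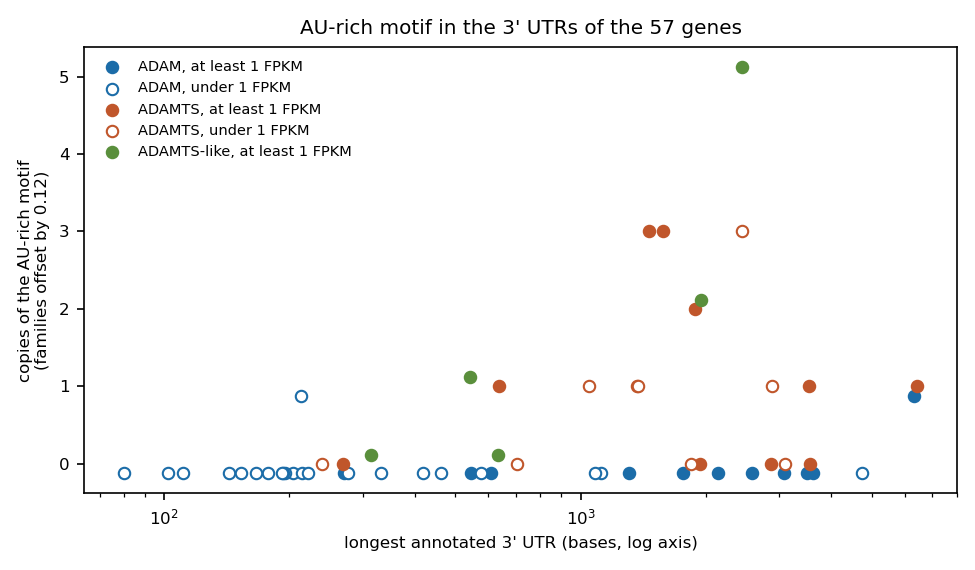
Copies of the AU-rich motif (y axis, families offset by 0.12) against the length of the longest annotated 3' UTR in bases (x axis, log scale) for the 57 genes, with filled points for genes at 1 FPKM or more in q1 or q2 and open points for the others. The blue ADAM points lie along 0 up to the 4743 bases of Adam12, except Adam21 and Adam22 at 1 copy. Of the orange ADAMTS points 11 of 19 lie above 0, and of the green ADAMTS-like points 3 of 5.

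Members with and without the motif were then compared in their difference between conditions. Of 13 tested members with the motif, 7 had the lower value in q2, with a median log2 fold change of -0.05, and of 19 without it 16 had the lower value, with a median of -0.26. Among the 27 members at 1 FPKM or more the medians had the opposite order, -0.38 in 11 genes with the motif and -0.26 in 16 without. The counts did not, since 7 of the 11 and 14 of the 16 had the lower value in q2. Over all tested genes the medians were -0.07 with and 0.01 without it. Those with the motif also had longer 3' UTRs, with a median of 2139.5 bases against 838, so motif and length are not separated there. None of these differences was tested.

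In level the 57 genes ran from a listed 0 to the 303 FPKM of Adamts1 in q2. In the authors' deposited table, 27 reached 1 FPKM in q1 or q2, 17 lay below that on both sides without being 0 on both, and 13 were listed at 0 on both sides. The authors tested 32 of the 57, all 27 of the first kind and 5 of the second. The highest value among the 25 genes not tested was 0.421 FPKM (Adam5 in q2, in the authors' deposited table), so the lack of a call on these says nothing about a change.

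Adam8 rose in q2 and was the single gene called. Across all tested genes, 0.612% were called, 0.498% higher and 0.114% lower, against 1 and 0 of the 32 tested members. By Cuffdiff's unadjusted p below 0.05, 1 member was higher and 1 lower, which is near the background of 5.99% of all tested genes (3.72% higher and 2.27% lower). Most members were lower in q2 by a small margin: 23 of 32 had the lower value there, against 51.3% of all tested genes, and their median log2 fold change was -0.25 against -0.01. At 1 FPKM or more on a side it was 21 of 27, against 51.5% of such genes. The values of 24 of the 32 genes lay within 1.5-fold of each other. With no spread over samples, these counts of direction carry no test.

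**Figure D2:**
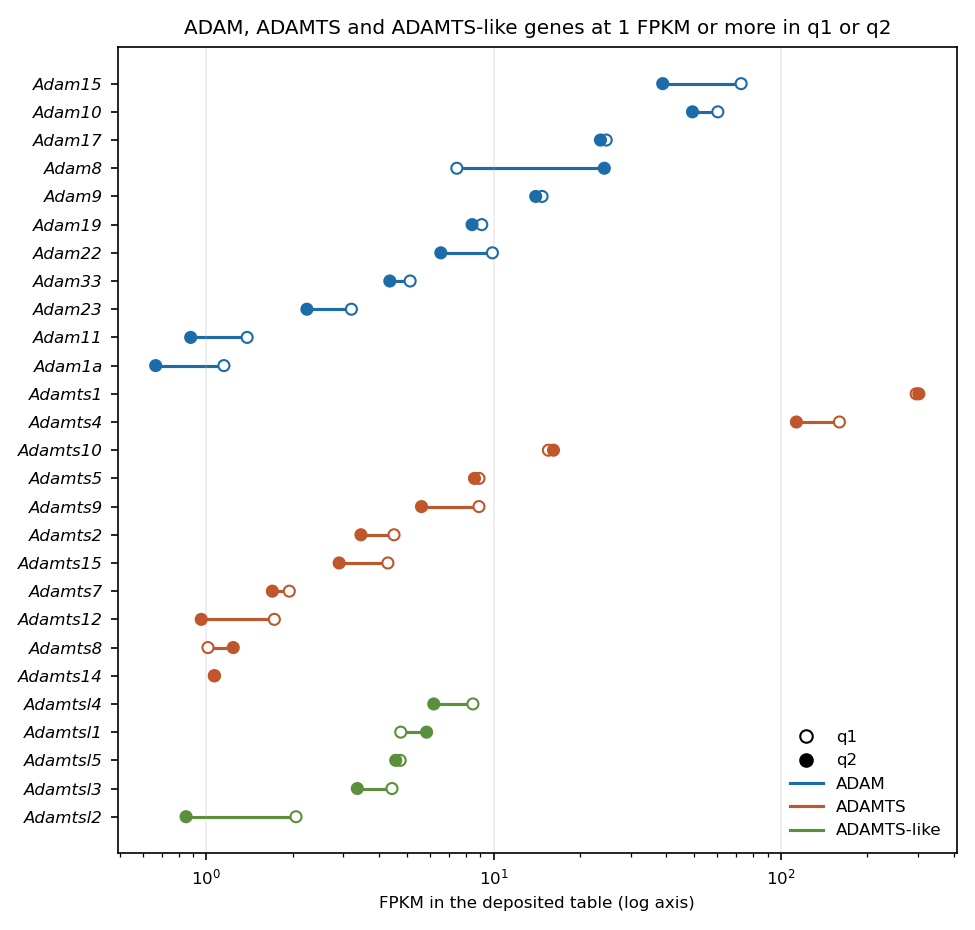
Level of the 27 genes at 1 FPKM or more in q1 or q2, in FPKM on a log axis, with an open point for q1, a filled point for q2 and a line between them, by family and ordered by mean level. Adam8 runs from 7.45 to 24.3, and most other filled points lie at or to the left of their open points.

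Of the ADAM proteases with an active site that work in body tissues, Adam15, Adam10 and Adam17 were the most abundant. Adam8, a sheddase and adhesion protein of leukocytes at chr7:139978941-139992488 (GRCm38), was listed at 7.45 FPKM in q1 and 24.3 in q2, a 3.26-fold rise (log2 fold change 1.71, and by the authors' deposited table a Cuffdiff p of 0.0003 and a q of 0.0490). It was among the smaller rises, 57th of 63 called genes that rose from a value above 0, and it shared its p with 3 other tested genes, just inside the threshold. When the p-values were adjusted over genes that reach 1 FPKM only, its q was 0.0510 and the call was lost. Most marker genes of blood cells also had the higher value in q2. All 12 neutrophil markers were higher in q2, 9 of them called, their sum going from 1202 to 15495 FPKM, with none at 0 on either side. Of 10 monocyte and macrophage markers, 7 were higher and 2 called, their sum going from 1237 to 2642 FPKM. All 7 lymphocyte markers were higher with 1 called (Nkg7), and their sum went from 14.4 to 69.0 FPKM. The part of these cells in the rise of Adam8 was not tested.

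Adam15, a disintegrin protease of endothelial and other adherent cells at chr3:89339640-89350010, had the largest difference downward among members above 5 FPKM. Its level was 72.8 FPKM in q1 and 38.8 in q2, 1.88-fold lower (log2 fold change -0.91, and by the authors' deposited table a Cuffdiff p of 0.0118 and a q of 0.488), which did not pass the test. It made up 34.3% of the summed FPKM of all ADAM genes in q1 and 22.2% in q2, while Adam8 made up 3.51% and 13.9%. All 8 endothelial markers were lower in q2 with none called (0 also at Cuffdiff's unadjusted p below 0.05), with a median log2 fold change of -0.25. Their part in the value of Adam15 was not tested.

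Neither of the 2 main sheddases passed the test. Adam10, which cuts Notch, cadherins and the amyloid precursor protein, was at 60.4 and 49.3 FPKM (q = 0.999 in the authors' deposited table). Adam17, which releases TNF and ligands of the EGF receptor, was at 24.7 and 23.6 FPKM there, and it shares its listed position with the gene Iah1, so how reads were divided between them is uncertain. Adam9, whose protein is also called meltrin gamma, was at 14.8 and 14.0 FPKM and Adam19, meltrin beta, at 9.10 and 8.42 FPKM in the authors' deposited table. The third meltrin, Adam12, known from myoblast fusion and regenerating muscle, was near 0 with 0.326 and 0.219 FPKM there and was not tested. Adam33 was at 5.12 and 4.35 FPKM and Adam28, a lymphocyte protease, at 0.718 and 0.598 FPKM in the authors' deposited table. Of the 8 tested genes of this group, Adam8 alone had the higher value in q2.

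Adam11, Adam22 and Adam23 lack protease activity and are best known from neurons, where ADAM22 and ADAM23 are receptors of the LGI proteins. All 3 had the lower value in q2 and none passed the test, nor an unadjusted Cuffdiff p below 0.05. Adam22 was at 9.91 and 6.55 FPKM, Adam23 at 3.20 and 2.24 and Adam11 at 1.39 and 0.882 in the authors' deposited table. On this per-length scale Adam22 lay at about the level of Adam19.

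The 21 ADAM genes known mainly from testis, sperm and epididymis were at or near 0, and 13 of them were listed at 0 in both conditions. Adam1a alone reached 1 FPKM, with 1.15 in q1 and 0.666 in q2 (Cuffdiff p = 0.254 in the authors' deposited table). Adam1a, at chr5:121518604-121521695, and its neighbour Adam1b lie 15.6 kb apart and are close copies, so reads between them can be shared. Adam4, the other tested gene of the group, was at 0.565 and 0.382 FPKM in the authors' deposited table. In the GENCODE annotation 15 of the 57 members have their coding sequence in 1 exon, all of them in this group. Of these 15 genes 10 were listed at 0 on both sides and 1 reached 1 FPKM. Of the 42 genes with more coding exons 3 were at 0 on both sides and 26 reached 1 FPKM. Those 3, Adam18, Adam2 and Adam7, belong to this group too, and Adam1a, its 1 gene that reached 1 FPKM, has 1 coding exon. The contrast between the 15 and the 42 therefore cannot be told apart from that between this group and the other members.

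Level changed sharply between some members that are neighbours on a chromosome. Chromosome 8 holds 14 members, of which 9 were listed at 0 on both sides and 1, Adam9, reached 1 FPKM. Adam18, Adam3, Adam5, Adam32 and Adam9 follow each other there from position 24602246 to 25016922 (GRCm38). Adam32 ends 0.807 kb before Adam9 starts, yet was listed at 0.109 FPKM in q1 and 0.0482 in q2, against the 14.8 and 14.0 FPKM of Adam9 in the authors' deposited table. On chromosome 16, Adamts1 and Adamts5 lie 55.0 kb apart and differed 33.3-fold in FPKM in q1 and 35.3-fold in q2. Adamts15 and Adamts8, 20.1 kb apart on chromosome 9, were both low, and their small differences went in opposite directions.

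ADAMTS1 and ADAMTS4 are secreted proteases that cut aggrecan and versican, the large proteoglycans that bind hyaluronan, and their genes dominated the ADAMTS family. Together they made up 90.1% of the summed FPKM of the 19 ADAMTS genes in q1 and 90.5% in q2. Adamts1, at chr16:85793828-85803115, was listed at 296 FPKM in q1 and 303 in q2 (log2 fold change 0.03, Cuffdiff p = 0.945 in the authors' deposited table), above 97.7% of all tested genes by its mean. Adamts4, at chr1:171250422-171259922, was at 160.1 and 113 FPKM (log2 fold change -0.50, Cuffdiff p = 0.219 in the authors' deposited table). The gene of the main cartilage aggrecanase, Adamts5, was at 8.90 and 8.58 FPKM there. Adamts9, which cuts versican, was at 8.90 and 5.61 FPKM (Cuffdiff p = 0.0960 in the authors' deposited table). Adamts15 was at 4.29 and 2.90, Adamts8 at 1.01 and 1.24 and Adamts20 at 0.506 and 0.536 FPKM there. None of these 7 proteoglycan-cleaving members passed Cuffdiff's test, also by an unadjusted p below 0.05, and 3 were higher and 4 lower in q2.

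The procollagen N-propeptidases ADAMTS2, ADAMTS3 and ADAMTS14 remove the amino-terminal propeptide of fibrillar collagens. Adamts2 was the most abundant at 4.50 and 3.45 FPKM, Adamts14 was at 1.07 in both conditions and Adamts3 at 0.674 and 0.802 FPKM in the authors' deposited table. Adamts7 and Adamts12, whose proteins cut cartilage oligomeric matrix protein, were at 1.94 and 1.70 FPKM and at 1.72 and 0.960 FPKM there. None of these 5 genes passed, at q or at an unadjusted Cuffdiff p below 0.05. Adamts13, which cuts von Willebrand factor and is made mainly in liver, was near 0 at 0.00290 FPKM in q1 and listed at 0 in q2. Among the remaining 6 genes, Adamts10, a gene of the fibrillin microfibril, stood out at 15.5 and 16.2 FPKM in the authors' deposited table, while its closest relative Adamts6 was at 0.401 and 0.531 FPKM and Adamts16, Adamts17, Adamts18 and Adamts19 were below 0.3 FPKM and not tested.

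The genes of all 5 ADAMTS-like proteins were tested, and 4 had the lower value in q2. Adamtsl2, a microfibril protein known to bind LTBP1, had the largest difference downward of all tested members, from 2.05 to 0.850 FPKM (log2 fold change -1.27, and by the authors' deposited table a Cuffdiff p of 0.0830 and a q of 0.999). With a pseudocount of 1 on both sides its difference was -0.72, since both values are low. Adamtsl4, which binds fibrillin-1, was at 8.48 and 6.19, Adamtsl3 at 4.43 and 3.35 and Adamtsl1 at 4.75 and 5.85 FPKM in the authors' deposited table. Adamtsl5 was listed at 4.73 and 4.56 FPKM there, but at a position of 672 kb that it shares with 45 other genes, so its value is uncertain.

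The split of directions by family was narrower when the genes of low level were left out. Of 13 tested ADAM genes 12 had the lower value in q2, with a median log2 fold change of -0.29, and of 14 tested ADAMTS genes 7 had the lower value, with a median of -0.03. At 1 FPKM or more on a side, 10 of 11 ADAM genes had the lower value, with a median of -0.29, and 7 of 11 ADAMTS genes, with a median of -0.20. The difference between the families was not tested.

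**Figure D3:**
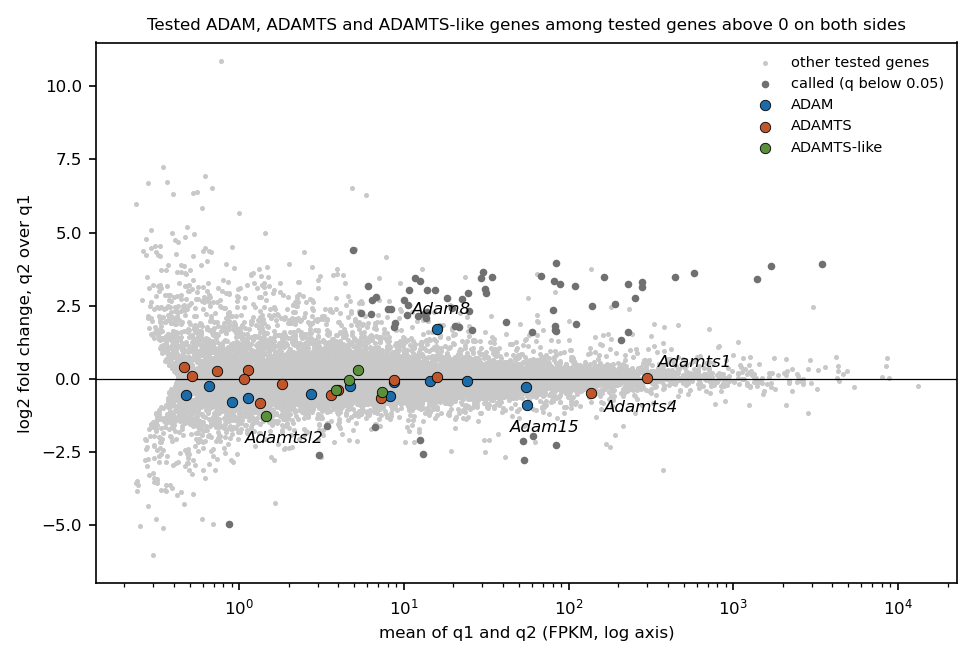
Log2 fold change of q2 over q1 (y axis) against the mean of q1 and q2 in FPKM (x axis, log scale) for tested genes above 0 on both sides, with the 32 tested members coloured by family and other called genes in dark grey. Adam8 at 1.71 lies at the lower edge of the called genes that rose, and the other 31 members lie between -1.27 and 0.40 inside the grey cloud.

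None of the tested inhibitors of these proteases was called, and their levels differed widely, with Reck lowest at 3.68 and 4.85 FPKM in the authors' deposited table. Timp4 was at 807 and 709 FPKM and Timp3, which inhibits ADAM17 and the aggrecanases, at 626 and 666 FPKM in the authors' deposited table. Of 5 tested inhibitors (the 4 Timp genes and Reck) 2 were higher and 3 lower, with 0 called and 0 at Cuffdiff's unadjusted p below 0.05. Of 12 tested partners in maturation, among them the iRhoms that carry ADAM17 to the surface, the tetraspanins that do so for ADAM10 and the convertases that remove the prodomain, 4 were higher and 8 lower. None of them was called, and Tspan5, a tetraspanin partner of ADAM10, was the 1 gene with an unadjusted Cuffdiff p below 0.05, at 8.91 and 5.03 FPKM (p = 0.0483 and q = 0.822, by the authors' deposited table). The 2 partners of the highest level were Tspan14, at 50.4 and 42.4 FPKM, and Rhbdf2, at 20.4 and 22.0 FPKM there.

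Among genes whose proteins are shed by ADAM proteases, 1 of 29 reported here was called higher and none lower, against 0.498% and 0.114% of all tested genes. In all, 12 had the higher and 17 the lower value in q2. The called gene was Il1r2, the decoy receptor of interleukin 1, made by leukocytes, which rose from 26.2 to 133.7 FPKM (Cuffdiff q = 0.0108 in the authors' deposited table). The rise in neutrophil markers given above went with it, and its part was not tested. By an unadjusted Cuffdiff p below 0.05, 4 of the 29 were higher and 3 lower, against 3.72% and 2.27% of all tested genes. Besides Il1r2, these were Selplg at 6.65 and 19.4, Cd44 at 25.8 and 48.3 and Tnf at 8.61 and 18.0 FPKM on the higher side in the authors' deposited table. Those on the lower side were Sdc1 at 26.0 and 11.9 FPKM, Btc at 0.846 and 0.137 FPKM and Jag1, a Notch ligand, at 47.7 and 30.2 FPKM there. The 2 of the highest level were Sdc4, the protein used to sort the cells, at 173 and 270 FPKM, and Cdh5 at 190.1 and 160.3 FPKM in the authors' deposited table. The median log2 fold change of these 29 genes was -0.25, against -0.01 over all tested genes.

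Among matrix substrates of ADAMTS proteases, 15 of 18 tested genes had the lower value in q2, against 51.3% of all tested genes. Of the 18, 2 were called lower and none higher, against 0.114% and 0.498% of all tested genes. The 2 called genes were Col2a1, cartilage collagen, and Acan, aggrecan. Col2a1 fell from 1.69 to 0.0537 FPKM (Cuffdiff q = 0.0490 in the authors' deposited table), and Acan was at 0.465 FPKM in q1 and listed at 0 in q2. Both calls rest on levels below 2 FPKM. When the p-values were adjusted over genes that reach 1 FPKM only, the q of Col2a1 was 0.0510 and its call was lost. Acan does not reach 1 FPKM and was left out of that adjustment, which therefore says nothing about its call. By Cuffdiff's unadjusted p below 0.05, 6 of the 18 were lower and none higher, against 2.27% and 3.72% of all tested genes. The other 4 were Col1a1 at 127.8 and 66.1, Col1a2 at 211 and 103, Comp at 31.2 and 15.7 and Vwf at 66.5 and 31.3 FPKM in the authors' deposited table, and none of these 4 passed at q. The most abundant substrate gene, Dcn, was at 1259 and 1407 FPKM in the authors' deposited table, with the higher value in q2, and Bgn, the next, at 240.2 and 223 FPKM. The 6 tendon cell markers were also all lower in q2, their sum going from 369.7 to 268 FPKM. None of them was called, and 2 had an unadjusted Cuffdiff p below 0.05. Comp and Fmod are on both the tendon list and the substrate list. Of 6 tested cartilage cell markers, among them Col2a1 and Acan, 3 were higher and 3 lower in q2. Of 8 fibroblast markers 2 were higher and 6 lower in q2, with none called and a median log2 fold change of -0.19. Col1a1 and Dcn are among the genes on both the fibroblast list and the substrate list. The part of any of these cell types in these values was not tested.

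**Figure D4:**
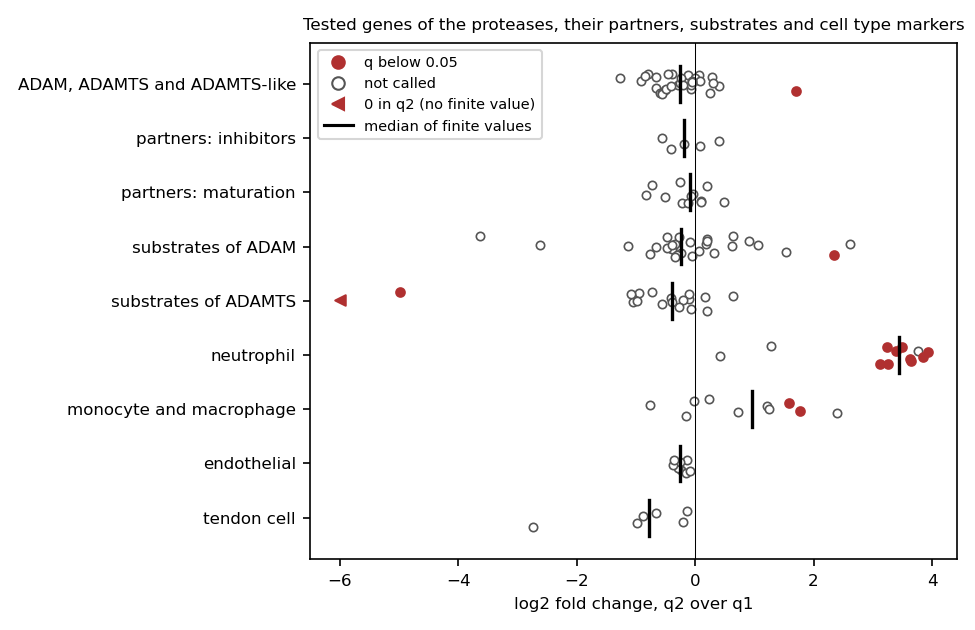
Log2 fold change of q2 over q1 (x axis) for the tested genes of each list (rows; points scattered vertically), with red points for genes called at q below 0.05, open points for the others and a black bar at the median of finite values; the red triangle is Acan, listed at 0 in q2 and drawn at the left edge. The protease row is centred near -0.25 with Adam8 farthest to the right, and the neutrophil row lies apart at a median of 3.44.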

How the data were processed

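The data are 1 table laid out like Cuffdiff output. Per the submitters' processing notes, the authors used TopHat2 2.0.9 and Cufflinks 2.2.1; no source used here gives annotation, normalization or strand setting. Per the file headers, it holds a value for each condition, whose unit is not named and is read as FPKM from the Cuffdiff layout, a log2 fold change, a test statistic (a score, not used), a p-value and a q-value, all made by the authors. Over the 14858 genes with status OK, the deposited q-value was the Benjamini-Hochberg adjustment of the p-value. The notes name mm9, but all 57 members overlapped their RefSeq gene on GRCm38, and coordinates are given in that build, 1-based. Values were read with pandas 2.3.3 in Python 3.11.15, and no test was added. The p-values are those of Cuffdiff for the difference between q1 and q2. The study has 3 samples of each genotype, but the headers name no sample behind q1 or q2. The labels do not say that the samples came from separate mice. Coding exons and 3' UTRs came from protein-coding transcripts of GENCODE vM21 (all tested members, 87.9% of tested genes). The adjustment was tested on simulated data. Members and lists were chosen with earlier results of these data known. Named were members at 1 FPKM or more or with p below 0.05 and, of the lists of partners and substrates, called genes, genes with p below 0.05 and the 2 most abundant; 1 gene of the list of ADAM substrates is not reported here and is left out of its counts; cell type marker lists are given by counts and sums; Pax7, Nkg7, Iah1 and members under 1 FPKM were named after their values were seen. Alternatives changed the q threshold, a minimum level or fold, the pseudocount (0.1 or 1), centring and the ADAMTS-like genes.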

Additional observations from a re-analysis of the deposited data

How the results depend on the processing

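Adam8 also passed a minimum of 2-fold at a pseudocount of 1. Looser thresholds (a q below 0.1, an unadjusted p below 0.05) and leaving out ADAMTS-like genes or genes at 0 could not remove its call by construction. The count of members called higher was 0 at a q below 0.01, which no gene of the table reaches, and 0 when p-values were adjusted over genes that reach 1 FPKM only (q of Adam8 0.0510; fewer genes are then tested). The count called lower was 1 (Adam15) at an unadjusted p below 0.05. The median log2 fold change of tested members was -0.15 with a pseudocount of 1, and between -0.29 and -0.23 under the other settings. Among genes that reach 1 FPKM, 0 ADAMTS substrates were called lower. Col2a1 then had a q of 0.0510, and Acan was left out by the minimum level itself. Other counts of related genes did not change. A pseudocount cannot change a gene's direction, and centring changed that of none of the 27 members at 1 FPKM or more. No paired analysis was possible because the table gives pooled values; leaving out a sample could not be run for the same reason.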
